A study of Mus musculus with 10 samples.

Results

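The genes described here encode 46 proteins of the DNA damage response and of DNA repair, chosen by name from a list and all found among the 24411 genes of the tables. Their transcripts were measured in 10 RNA sequencing libraries of in vitro produced ICR mouse morulae, each library from 10 embryos (the strain is given in the labels for replicates 1 and 2 of each group). One-cell embryos received a microinjection 3 to 6 h after insemination and were cultured in KSOM medium until 72 h. The injected antisense oligonucleotide (ASO), a short nucleic acid that lowers the RNA it pairs with, either had no target (ASO-Control, 5 libraries) or was directed at Mettl3 (Mettl3-ASO, 5 libraries). Mettl3 encodes the catalytic subunit of the N6-methyladenosine (m6A) RNA methyltransferase. All embryos of both groups were therefore fertilized in vitro and injected, and each library is a pool in which single embryos cannot be told apart. The labels assign replicates 3 to 5 of each group to batch 2 while replicates 1 and 2 carry no such mark (here untagged). No label ties the libraries to separate fertilizations, and p-values cover the scatter among these 10 pools, part of which may be technical.

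Cells meet DNA damage with a network of sensors, kinases and repair enzymes. Double-strand breaks are detected by the complex that contains Rad50 and Nbn, signalled by the kinases Atm and Atr, and mended either by homologous recombination, which copies an intact template, or by end joining, which ligates the ends. Damaged bases are cut out by base excision repair, bulky lesions by nucleotide excision repair, replication errors by mismatch repair, and crosslinks by the Fanconi anaemia pathway. Cleavage embryos divide quickly after inheriting damage from both gametes, and they rely at first on repair factors deposited in the egg.

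Of the 46 transcripts, 42 had a mean of at least 1 FPKM (fragments per kilobase of transcript, scaled to library depth) over the 10 libraries and were tested. In Mettl3-ASO morulae 10 rose and 10 fell, at an adjusted p under 0.05 in edgeR's quasi-likelihood test on expected counts. These 20 are 47.6% of the tested members, beside 49.4% of all 9522 tested genes (25.4% higher and 24.0% lower). The share of members called was thus near the share of all genes called, and the list as a whole had a median log2 fold change of −0.02 beside 0.01 over all tested genes. By role, 3 of 7 homologous recombination genes rose and the other 4 were not called, while 4 of 8 base excision genes fell and the other 4 were not called. Changes reached 2-fold in 5 members that rose (Brca2, Ercc4, Ercc5, Lig4 and Rad51c) and 3 that fell (Xrcc4, Xrcc6 and Polb). These 8 are 19.0% of the tested members, beside 22.1% of all tested genes (13.4% higher and 8.67% lower).

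**Figure D1:**
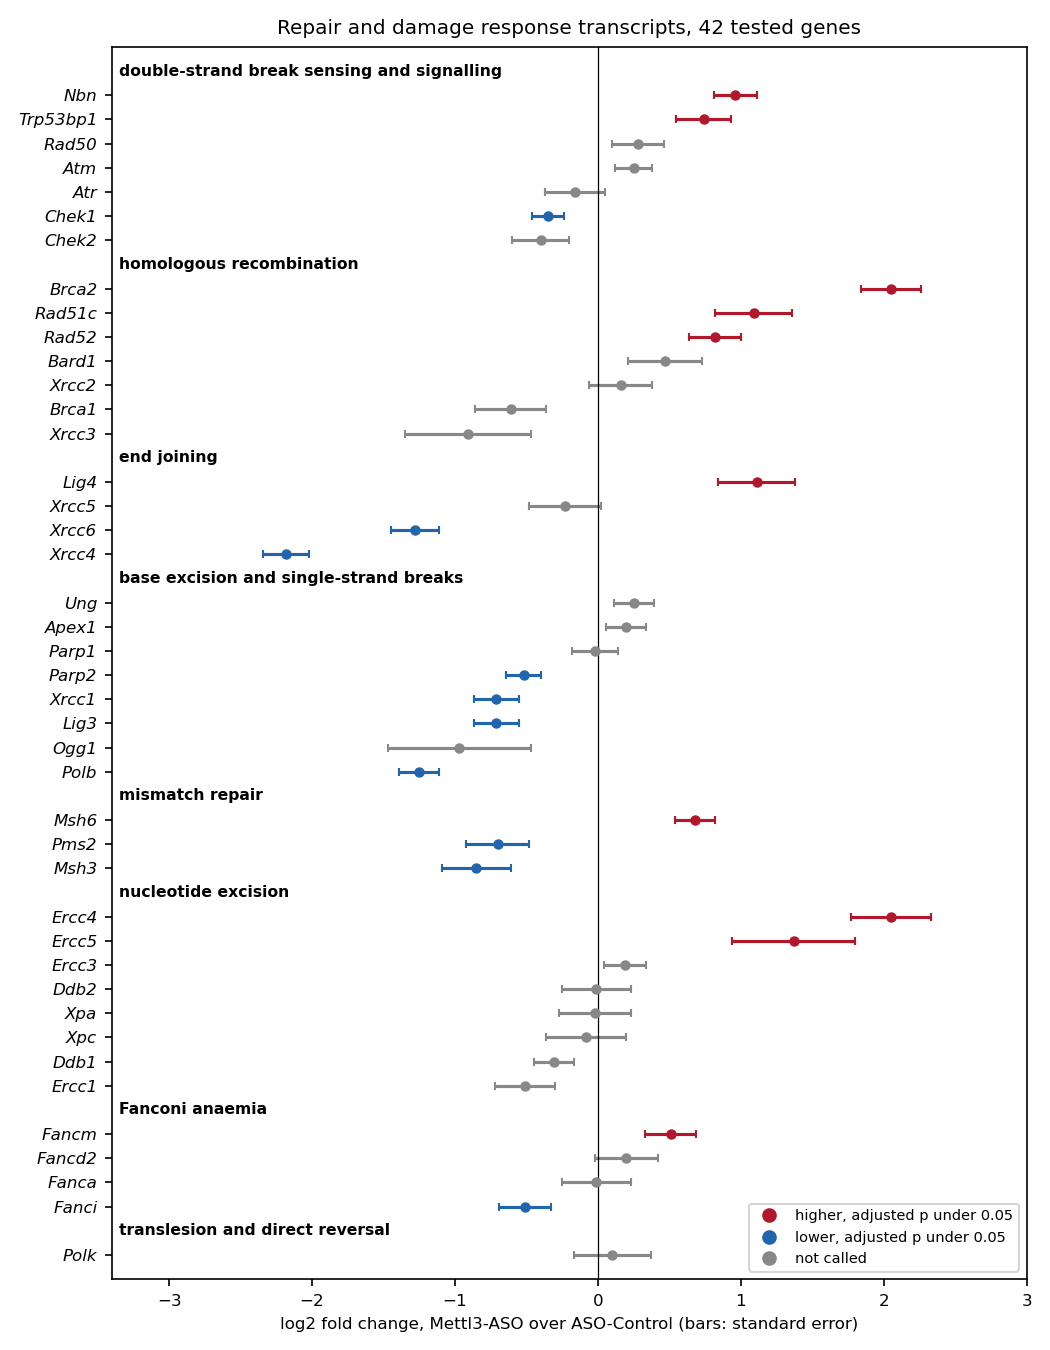
Log2 fold change of Mettl3-ASO over ASO-Control (horizontal axis) for the 42 tested members grouped by role, with bars for the standard error of the edgeR fit over 5 libraries per group. Brca2 and Ercc4 lie furthest to the right at 2.05 each and Xrcc4 furthest to the left at −2.18, while the base excision genes Polb, Lig3, Xrcc1 and Parp2 lie below 0.

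Promoter windows of members that moved in either direction are shown for the letters they share. RefSeq promoter sequences (GRCm38.p6, from 250 bases before to 50 bases after the start) matched 37 of the 46 members by symbol, with 41 windows. An E2F motif, searched as TTTCCCGC, TTTCGCGC, TTTGCCGC or TTTGGCGC on both strands, was found in 9 of the 41 windows and in 2.26% of all 32851 windows. E2F factors drive genes of the S phase of the cell cycle. The 8 members with a match were Brca2, Rad51c and Msh6, which rose, Xrcc6 and Msh3, which fell, Bard1 and Chek2, which were not called, and Mdc1, which was not tested. Windows are 5′ to 3′ along the gene, with capitals for E2F matches and for the cyclic AMP response element TGACGTCA, found in Brca2 and Rad51c alone among the 37 matched members and in 1.79% of all windows. Of the 2 Rad51c windows with an E2F match, the one with both motifs is shown. The other, chr11:87404905-87405204, holds the annotated 5′ end of the gene (87404954 in GENCODE) and has no TGACGTCA. The Xrcc6 window lies downstream of the annotated 5′ end of its gene (81987835 in GENCODE) and does not hold it.
Brca2, chr5:150522371-150522670, plus strand: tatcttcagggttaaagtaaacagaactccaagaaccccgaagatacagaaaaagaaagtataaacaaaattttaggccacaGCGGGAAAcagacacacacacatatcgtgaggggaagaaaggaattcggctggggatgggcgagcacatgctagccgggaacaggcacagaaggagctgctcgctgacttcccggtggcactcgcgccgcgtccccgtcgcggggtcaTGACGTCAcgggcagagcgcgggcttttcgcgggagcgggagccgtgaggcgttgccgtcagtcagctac
Rad51c, chr11:87404457-87404756, minus strand: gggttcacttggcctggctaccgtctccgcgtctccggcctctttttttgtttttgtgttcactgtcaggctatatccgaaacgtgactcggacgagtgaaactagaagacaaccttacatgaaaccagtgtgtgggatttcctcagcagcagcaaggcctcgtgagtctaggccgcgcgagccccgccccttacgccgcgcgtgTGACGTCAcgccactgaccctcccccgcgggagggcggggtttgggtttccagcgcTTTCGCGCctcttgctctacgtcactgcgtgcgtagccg
Msh6, chr17:87974800-87975099, plus strand: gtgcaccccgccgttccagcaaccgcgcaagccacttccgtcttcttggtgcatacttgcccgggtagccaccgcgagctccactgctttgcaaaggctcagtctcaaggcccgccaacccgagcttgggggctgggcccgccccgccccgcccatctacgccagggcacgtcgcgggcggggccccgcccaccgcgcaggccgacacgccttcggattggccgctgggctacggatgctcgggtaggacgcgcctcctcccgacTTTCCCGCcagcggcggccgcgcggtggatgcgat
Xrcc6, chr15:82016119-82016418, plus strand: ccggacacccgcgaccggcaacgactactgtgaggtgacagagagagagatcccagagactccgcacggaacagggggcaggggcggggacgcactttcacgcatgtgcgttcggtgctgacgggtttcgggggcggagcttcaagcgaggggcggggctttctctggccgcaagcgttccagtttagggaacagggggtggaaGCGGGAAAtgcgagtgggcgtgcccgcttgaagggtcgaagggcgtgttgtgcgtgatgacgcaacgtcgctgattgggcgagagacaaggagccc
Msh3, chr13:92354954-92355253, minus strand: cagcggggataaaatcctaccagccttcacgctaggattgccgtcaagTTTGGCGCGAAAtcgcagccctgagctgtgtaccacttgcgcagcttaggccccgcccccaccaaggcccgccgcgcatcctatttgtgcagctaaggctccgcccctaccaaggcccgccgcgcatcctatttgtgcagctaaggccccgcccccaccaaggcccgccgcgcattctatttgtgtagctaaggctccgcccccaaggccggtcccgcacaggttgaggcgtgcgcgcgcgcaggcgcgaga
The E2F match of Brca2 and Xrcc6 reads as the reverse complement. Msh3 holds 2 overlapping matches, TTTGGCGC and the reverse complement of TTTCGCGC, capitalised as 1 run. Members that rose and members that fell both carried it, and a match is a description of letters in the window. Of the other motifs searched on both strands, CCAAT was in 18 of the 41 windows (37.41% of all windows), the ETS motif CCGGAAG in 9 (8.86%) and TATAAA in 2 (13.62%).

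The libraries held 9905830 to 13530284 expected counts when untagged and 21412857 to 32327283 in batch 2. Mettl3 was at 6.58 to 12.68 FPKM in ASO-Control and at most 0.04 FPKM in Mettl3-ASO (log2 fold change −8.72 ± 0.45, SE). Correlations of log expression were 0.912 to 0.979 within groups and 0.815 to 0.905 between them. Of 8 tested markers of morula lineages 5 fell and 1 rose, with the summed level of the 9 listed at 288 to 1100 FPKM in ASO-Control and 226 to 886 in Mettl3-ASO. All 5 listed 2-cell stage genes rose, from a summed 2.9 to 12.9 FPKM to 666 to 3250. The 5 listed oocyte genes summed to 2.52 to 4.99 FPKM in ASO-Control and 8.0 to 19.2 in Mettl3-ASO, with both tested ones higher. The 7 cumulus cell markers summed to at most 0.6 FPKM in any library, with Has2, Amh and Cyp19a1 at 0 in all 10, and the 4 sperm markers to at most 3.04. The part of the lineage, 2-cell and oocyte programs in the changes below was not tested, and in pools of whole embryos fewer cells of a type and less RNA per cell cannot be told apart.

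Among the genes of break sensing and signalling, the 2 that rose bind to chromatin around breaks. Nbn encodes nibrin, the subunit that brings the Rad50 complex and Atm together. Its level in ASO-Control replicates 1 to 5 was 11.19, 11.14, 11.57, 9.12 and 10.02 FPKM, and in Mettl3-ASO replicates 1 to 5 it was 21.31, 24.79, 18.16, 19.75 and 22.26 FPKM. Every Mettl3-ASO library lay above every control, and the log2 fold change was 0.96 ± 0.15 (SE; adjusted p = 0.000193). Trp53bp1, whose product shields broken ends and favours end joining, went from 0.84 to 1.44 FPKM in the controls to 1.46 to 2.52 in Mettl3-ASO. The groups came close but did not overlap, and it rose by 0.74 ± 0.19 (adjusted p = 0.00655), but it passed neither in batch 2 (0.0597) nor in the untagged libraries (0.16) alone. Opposite-strand exons of Tubgcp4 overlap 15% of its exon bases, and no source used here says whether the counting took strand into account.

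The kinases of this group changed less. Chek1, the checkpoint kinase that delays division during replication stress, had 35.93, 37.72, 44.33, 50.29 and 53.17 FPKM in the control replicates and 37.45, 29.70, 35.58, 37.61 and 38.44 in Mettl3-ASO. The ranges overlapped, and it fell by 0.35 ± 0.11 on the log2 scale (adjusted p = 0.0189). The call was lost without ASO-Control replicate 5 (adjusted p = 0.0574), with no batch term (0.134) and with limma on log2(FPKM + 1) (0.0632). Chek2, its partner downstream of Atm, differed by −0.40 ± 0.20 on the log2 scale (adjusted p = 0.109; 0.0358 with the replicate number as a block; 0.0421 without Mettl3-ASO replicate 2).

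Atm was at 4.62 to 6.79 FPKM in ASO-Control and 5.67 to 7.56 in Mettl3-ASO, a log2 difference of 0.25 ± 0.13 (adjusted p = 0.129). Atr, the kinase for stalled forks, had −0.16 ± 0.21 (95% interval −0.61 to 0.30). Rad50, the structural partner of Nbn, had 0.28 ± 0.18 (adjusted p = 0.211). The ratio of Nbn to Rad50 FPKM was 1.52 to 2.45 in the controls and 2.66 to 4.04 in Mettl3-ASO, with no overlap. Mdc1, the mediator that binds marked chromatin, averaged 0.522 FPKM and was not tested.

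In homologous recombination, Brca2 showed the clearest change. It encodes a tumour suppressor that acts on resected DNA ends during strand exchange. On chromosome 5 it spans 150522630 to 150570329 (GRCm38, plus strand), and its window is the first printed above. Control replicates 1 to 5 held 2.28, 3.57, 3.54, 3.61 and 4.82 FPKM, and Mettl3-ASO replicates 1 to 5 held 11.80, 15.00, 11.52, 16.05 and 21.15 FPKM. The lowest Mettl3-ASO library lay well above the highest control. The means were 3.56 ± 0.898 and 15.1 ± 3.91 FPKM (SD, n = 5), from 4771 and 16122 expected counts in all, and the fold was 4.13 (log2 2.05 ± 0.21, SE; adjusted p = 1.04e-05).

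Rad51c and Rad52 also rose. Rad51c, which acts in strand exchange and in resolving junctions, had 2.15, 1.69, 1.70, 2.46 and 3.96 FPKM in the controls and 6.00, 5.87, 4.72, 5.88 and 3.88 in Mettl3-ASO. Mettl3-ASO replicate 5 lay just under ASO-Control replicate 5, the only overlap, and the log2 fold change was 1.09 ± 0.27 (adjusted p = 0.00469). Rad52, which anneals single strands, went from 6.83 to 12.59 FPKM to 16.22 to 20.44 without overlap (log2 0.82 ± 0.18; adjusted p = 0.00254). Batch 2 alone gave 1.10 for Rad52 and the untagged pools 0.41. For Rad51c they gave 0.80 and 1.59, and it passed in neither set alone (adjusted p = 0.0804 and 0.0549).

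Brca1 and Bard1, which form a ubiquitin ligase that promotes end resection, were not called. Brca1 had 4.18, 2.46, 2.29, 2.80 and 3.61 FPKM in the controls and 3.53, 1.64, 1.23, 2.50 and 1.71 in Mettl3-ASO. The ranges overlapped, and the log2 difference was −0.61 ± 0.25 (adjusted p = 0.0608). It passed with the replicate number as a block (adjusted p = 0.0123) and when ASO-Control replicate 2 (0.038), Mettl3-ASO replicate 1 (0.022) or Mettl3-ASO replicate 4 (0.0414) was left out, as well as with DESeq2 (0.0322). Bard1 had 0.47 ± 0.26 (adjusted p = 0.155).

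Xrcc2 and Xrcc3, which act in complexes with Rad51c, were low. Xrcc2 had a log2 fold change of 0.16 ± 0.22 (95% interval −0.33 to 0.64). Xrcc3, which pairs with Rad51c, had 2.6, 1.49, 0.66, 1.54 and 1.81 FPKM in the controls and 2.21, 0.64, 0.85, 0.30 and 0.76 in Mettl3-ASO, where replicate 1 stood apart. Its log2 fold change was −0.91 ± 0.44 (adjusted p = 0.103; 0.0361 without Mettl3-ASO replicate 1). The ratio of Rad51c to Xrcc3 was 0.827 to 2.58 in the controls and 2.71 to 19.6 in Mettl3-ASO.

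**Figure D2:**
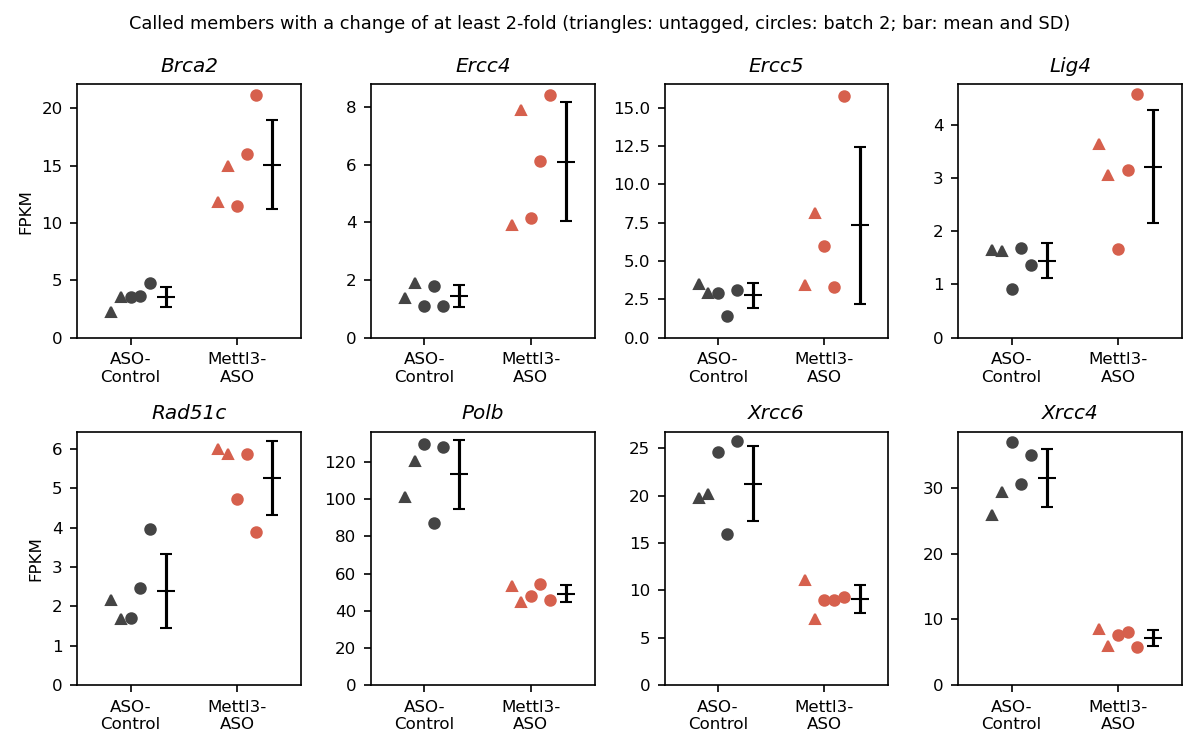
FPKM (vertical axis, from 0) in each library for the 8 called members with a change of at least 2-fold, with triangles for untagged libraries, circles for batch 2 and a bar for the mean and SD of 5 libraries. The groups do not overlap for Brca2, Ercc4, Polb, Xrcc6 and Xrcc4, and they touch or overlap for Ercc5, Lig4 and Rad51c.

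The end-joining ligase and its scaffold moved in opposite directions. Xrcc4 encodes the scaffold that stabilizes DNA ligase IV, the enzyme that seals the break. It lies on chromosome 13 at 89774027 to 90089608 (GRCm38, minus strand). Its level was 25.95, 29.45, 37.00, 30.55 and 34.97 FPKM in the control replicates and 8.55, 6.01, 7.63, 8.07 and 5.78 in Mettl3-ASO. The groups lay far apart, with means of 31.6 ± 4.42 and 7.21 ± 1.24 FPKM (SD, n = 5), and Xrcc4 fell by 2.18 ± 0.16 on the log2 scale (adjusted p = 1.51e-06).

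Lig4, the gene of the ligase, had 1.64, 1.62, 0.91, 1.69 and 1.37 FPKM in ASO-Control and 3.63, 3.05, 1.66, 3.15 and 4.57 in Mettl3-ASO. Mettl3-ASO replicate 3 fell inside the control range and the others above it. Lig4 rose by 1.11 ± 0.27 (adjusted p = 0.00463). Within each library the ratio of Lig4 to Xrcc4 FPKM was 0.0246 to 0.0632 in the controls and 0.218 to 0.791 in Mettl3-ASO. The scaffold transcript was the more abundant of the pair per length in every library.

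The Ku heterodimer, which caps broken ends, is made by Xrcc5 and Xrcc6. Xrcc6 had 19.76, 20.16, 24.56, 15.95 and 25.80 FPKM in the controls and 11.06, 6.97, 9.02, 8.95 and 9.28 in Mettl3-ASO. There was no overlap, and it fell by 1.28 ± 0.17 (adjusted p = 8.07e-05). Opposite-strand exons of Desi1 overlap 7.7% of its exon bases. Xrcc5 had 9.13, 5.90, 15.10, 17.99 and 22.26 FPKM in the controls and 10.33, 11.11, 14.56, 11.85 and 9.50 in Mettl3-ASO. The untagged controls were the lowest and the batch 2 controls the highest of its values.

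Over all libraries Xrcc5 had a log2 fold change of −0.23 ± 0.25 (95% interval −0.76 to 0.30), with −0.66 in batch 2 (adjusted p = 0.0413) and 0.48 in the untagged libraries (adjusted p = 0.414). The interaction of group and batch gave an unadjusted p of 0.0129 for it, the only member under 0.05, and no gene passed after adjustment. The unadjusted share over all tested genes was 1.67%. Prkdc, the kinase that Ku recruits, averaged 0.793 FPKM and was not tested.

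Of 8 tested genes of base excision repair and the sealing of single-strand breaks, 4 fell and 0 rose. Among all tested genes 24.0% fell and 25.4% rose. Of 12 other tested genes of these pathways, 3 fell and 2 rose. Polb, DNA polymerase beta, fills the short gap left after a base is removed. Its level was 101.22, 120.45, 129.98, 87.29 and 128.29 FPKM in ASO-Control replicates 1 to 5 and 53.42, 44.63, 48.02, 54.42 and 45.59 in Mettl3-ASO. The Mettl3-ASO libraries were tightly grouped below every control, with means of 113 ± 18.5 and 49.2 ± 4.48 FPKM (SD, n = 5). Polb fell by 1.25 ± 0.14 (adjusted p = 2.54e-05), with −1.26 in batch 2 and −1.23 in the untagged libraries.

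Xrcc1 is the scaffold on which ligase III and polymerase beta assemble. It had 24.07, 22.63, 13.22, 14.11 and 13.01 FPKM in the controls and 18.33, 11.94, 10.71, 6.86 and 7.46 in Mettl3-ASO. The groups overlapped, with the untagged libraries the highest of each, and it fell by 0.71 ± 0.16 in the fit with a batch term (adjusted p = 0.00272). Lig3, the ligase it binds, had 8.15 to 13.88 FPKM in the controls and 5.23 to 10.32 in Mettl3-ASO and fell by 0.71 ± 0.16 (adjusted p = 0.00302). Opposite-strand exons of Rffl overlap 25.1% of the exon bases of Lig3. The ratio of Xrcc1 to Lig3 was 1.24 to 1.90 in the controls and 1.01 to 2.21 in Mettl3-ASO, with overlap.

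The poly(ADP-ribose) polymerases Parp1 and Parp2 mark strand breaks and recruit Xrcc1. Parp2 had 62.82, 70.83, 88.80, 89.84 and 89.66 FPKM in the controls and 47.14, 55.26, 65.17, 57.34 and 62.00 in Mettl3-ASO. Within each batch every Mettl3-ASO library was below every control, and Parp2 fell by 0.52 ± 0.12 (adjusted p = 0.00335). Parp1 had 26.37 to 34.66 FPKM in the controls and 19.91 to 45.84 in Mettl3-ASO, with a log2 fold change of −0.02 ± 0.16. Its 95% interval of −0.37 to 0.32 leaves out a 2-fold change in either direction.

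The glycosylases and the endonuclease that open base excision were not called. Apex1, which cuts the strand at the vacated site, was the most abundant member at a mean of 182 ± 38.5 FPKM in ASO-Control and 215 ± 28.6 in Mettl3-ASO (SD, n = 5; log2 0.20 ± 0.14 SE). Opposite-strand exons of Pip4p1 overlap 61.7% of its exon bases, and its level is uncertain where reads of both strands were counted together. Ung, which removes uracil, had 0.25 ± 0.14 (adjusted p = 0.143). Ogg1, which removes oxidized guanine, had 2.73, 3.35, 1.76, 2.76 and 1.93 FPKM in the controls and 2.56, 0.23, 1.84, 1.48 and 0.42 in Mettl3-ASO. Its Mettl3-ASO libraries were scattered, and the log2 fold change was −0.97 ± 0.50 (adjusted p = 0.125; 0.047 with no filter on FPKM). Opposite-strand exons of Camk1 overlap 10.6% of its exon bases.

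All 3 mismatch repair genes of the list were called, 1 higher and 2 lower, beside 49.4% of all tested genes. Of 4 other mismatch repair genes tested, 0 were called. Msh6 encodes a subunit of the complex that recognizes single mismatches. It had 23.63, 22.53, 19.60, 22.78 and 21.81 FPKM in the controls and 34.86, 45.20, 28.39, 36.38 and 36.67 in Mettl3-ASO. There was no overlap, and Msh6 rose by 0.68 ± 0.14 (adjusted p = 0.00133). Msh3, a subunit of the complex for longer loops, had 2.74, 3.53, 3.92, 2.34 and 2.16 FPKM in the controls and 2.40, 1.78, 1.35, 1.97 and 1.05 in Mettl3-ASO. It fell by 0.85 ± 0.24 (adjusted p = 0.0113), with Mettl3-ASO replicate 1 inside the control range.

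The ratio of Msh6 to Msh3 FPKM was 5.0 to 10.1 in the controls and 14.5 to 34.9 in Mettl3-ASO. Pms2, an endonuclease subunit that acts after recognition, went from 2.93 to 5.39 FPKM to 1.75 to 3.72 and fell by 0.70 ± 0.22 (adjusted p = 0.0193). This call was lost without ASO-Control replicate 2 (0.0512) or 4 (0.052).

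Of 8 tested nucleotide excision genes, Ercc4 and Ercc5 rose and 6 were not called. The 2 that rose were near the 25.4% higher among all tested genes. Ercc4 encodes the catalytic subunit of the nuclease that cuts on the 5′ side of a lesion, and Ercc1 its obligate partner. Ercc4 lies on chromosome 16 at 13109684 to 13150617 (GRCm38, plus strand). It had 1.38, 1.89, 1.09, 1.81 and 1.11 FPKM in the controls and 3.91, 7.90, 4.16, 6.13 and 8.41 in Mettl3-ASO. The lowest Mettl3-ASO value was above every control by a wide margin, and Ercc4 rose 4.14-fold (log2 2.05 ± 0.28; adjusted p = 8.15e-05).

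Ercc1 had 11.62, 9.20, 21.09, 13.46 and 18.49 FPKM in the controls and 11.49, 8.12, 12.45, 10.80 and 8.94 in Mettl3-ASO. The ranges overlapped, and the log2 difference was −0.51 ± 0.21 (adjusted p = 0.0598; 0.043 in batch 2 alone). Leaving out ASO-Control replicate 2 (0.0426), ASO-Control replicate 4 (0.0448) or Mettl3-ASO replicate 1 (0.0362) gave a call, as did DESeq2 (0.0396). The ratio of Ercc4 to Ercc1 was 0.0517 to 0.205 in the controls and 0.334 to 0.973 in Mettl3-ASO, with no overlap.

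Ercc5 encodes the nuclease that cuts on the 3′ side. It had 3.52, 2.91, 2.92, 1.40 and 3.14 FPKM in the controls and 3.45, 8.11, 6.00, 3.33 and 15.79 in Mettl3-ASO. Replicates 1 and 4 of Mettl3-ASO were within the control range and replicate 5 far above it. The log2 fold change was 1.37 ± 0.43 (adjusted p = 0.0185), but it was 0.84 without Mettl3-ASO replicate 5 (adjusted p = 0.0576) and 1.24 without replicate 2 (0.0538). The call for Ercc5 thus depended on those 2 libraries, and its size on replicate 5.

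The 5 tested genes that find lesions and unwind DNA were not called. Xpc and the Ddb1 and Ddb2 pair recognize damage in chromatin, Xpa verifies it, and Ercc3 is a helicase of the general transcription factor TFIIH. Xpc had a log2 fold change of −0.08 ± 0.28, Ddb2 of −0.01 ± 0.24, Xpa of −0.02 ± 0.25 and Ercc3 of 0.19 ± 0.15. Their 95% intervals ran from −0.70 at the lowest to 0.54 at the highest, so that none reached a 2-fold change. Opposite-strand exons of Acp2 overlap 23.8% of the exon bases of Ddb2, and those of Tkfc 5.1% of Ddb1. Ddb1, which also serves as an adaptor of cullin ubiquitin ligases, had 29.01 to 42.17 FPKM in the controls and 45.93, 23.17, 23.63, 25.01 and 24.60 in Mettl3-ASO replicates 1 to 5. All but replicate 1 lay below the controls, and the log2 fold change of −0.31 ± 0.14 (adjusted p = 0.0756) became −0.44 without that library (adjusted p = 0.0069). The replicate block also gave a call (0.0223). Ercc2, the other TFIIH helicase, averaged 0.885 FPKM, with 42.4% of its exon bases under opposite-strand exons, and was not tested.

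In the Fanconi anaemia pathway, both calls were small. Fancm, a translocase that brings the core complex to stalled forks, went from 5.41 to 9.06 FPKM to 8.11 to 12.45 and rose by 0.51 ± 0.18 (adjusted p = 0.0327). Fanci, which is ubiquitinated together with Fancd2, went from 2.59 to 3.27 FPKM to 1.53 to 3.06 and fell by 0.51 ± 0.18 (adjusted p = 0.0324). Both ranges overlapped. Opposite-strand exons of Polg overlap 16% of the exon bases of Fanci, and opposite-strand exons overlap 7.1% of those of Fancm and 10.5% of those of Fanca. Leaving out any 1 of 5 libraries ended either call, with adjusted p up to 0.0868 for Fancm (ASO-Control replicates 1 and 3, Mettl3-ASO replicates 2, 4 and 5). For Fanci it was up to 0.0816 (ASO-Control replicates 2, 4 and 5, Mettl3-ASO replicates 3 and 5).

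Fancd2 had a log2 fold change of 0.20 ± 0.22, and its ratio to Fanci was 0.463 to 0.539 in the controls and 0.428 to 1.03 in Mettl3-ASO. Fanca, a core complex subunit, had −0.01 ± 0.24 at about 1 FPKM. Polk, a polymerase that copies past lesions, had 0.10 ± 0.27. Mgmt, which strips alkyl groups from guanine, averaged 0.819 FPKM with 64 counts in the controls and 32 in Mettl3-ASO and was not tested.

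**Figure D3:**
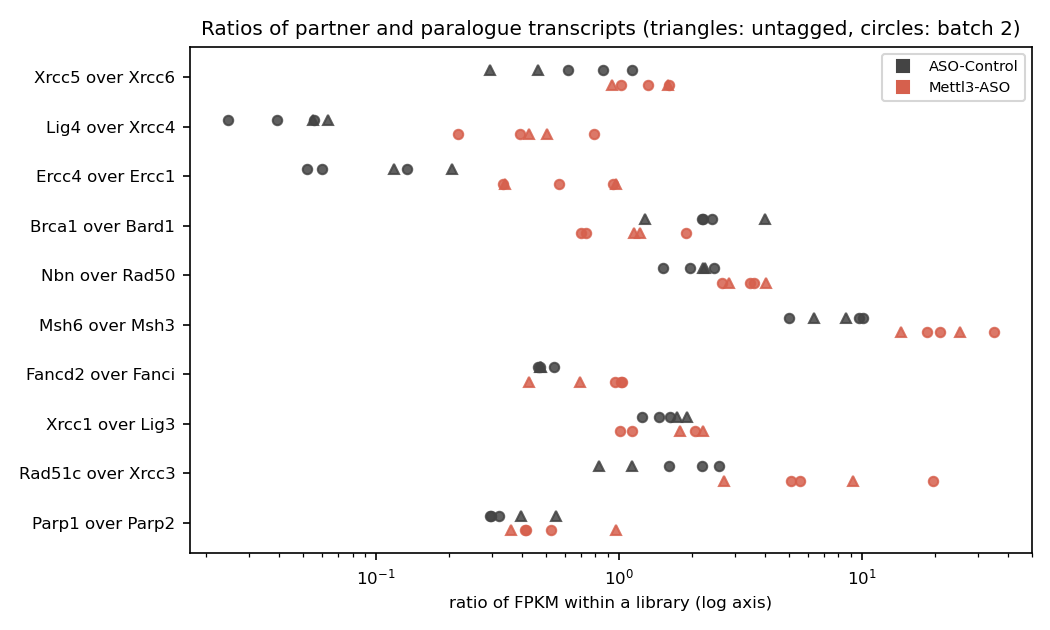
Ratio of the FPKM of gene pairs whose products work together or are paralogues (horizontal log axis), 1 point per library, triangles for untagged and circles for batch 2. The groups are apart for Lig4 over Xrcc4, Ercc4 over Ercc1, Nbn over Rad50, Msh6 over Msh3 and Rad51c over Xrcc3, and overlap for the other 5 pairs. The pairs were chosen with earlier results known, and no share over other gene pairs was computed. A ratio repeats the change of its own members and is no separate evidence.

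Seen across the list, 9 of the 42 tested members (21.4%) had FPKM ranges that did not overlap between groups, beside 25.6% of all tested genes (15.0% higher and 10.6% lower). Brca2, Ercc4, Nbn, Rad52, Msh6 and Trp53bp1 were the 6 higher ones, and Xrcc4, Xrcc6 and Polb the 3 lower. Of the 22 members not called, 18 had a 95% interval that left out a 2-fold change either way. Brca1, Bard1, Xrcc3 and Ogg1 did not, and an adjusted p above the threshold does not show that the uncalled members were equal.

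Members had like directions in the 2 sets of libraries about as often as tested genes in general. Of the 42 tested members, 34 had the same sign in batch 2 and in the untagged libraries, beside 8146 of all 9522 tested genes (85.5%). All 20 called members were among the 34. They were called in a fit over both sets, which favours members whose sets agree, so this is no separate support. In batch 2 alone 7 members rose and 10 fell (39.0% of all genes called, 20.2% higher and 18.9% lower). In the untagged libraries alone Brca2 rose and Xrcc4 and Polb fell (6.26% of all genes called, 3.79% higher and 2.47% lower). The called members Rad51c, Trp53bp1, Pms2, Fanci and Fancm passed in neither set alone. Brca2 had log2 fold changes of 1.99 and 2.16 in batch 2 and the untagged libraries, Xrcc4 of −2.29 and −1.98. Without Mettl3-ASO replicate 1, 10 members rose and 14 fell (50.4% of all genes called, 25.8% higher and 24.6% lower). With the replicate number as a block 10 rose and 13 fell (55.1% of all genes called, 27.6% higher and 27.5% lower).

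**Figure D4:**
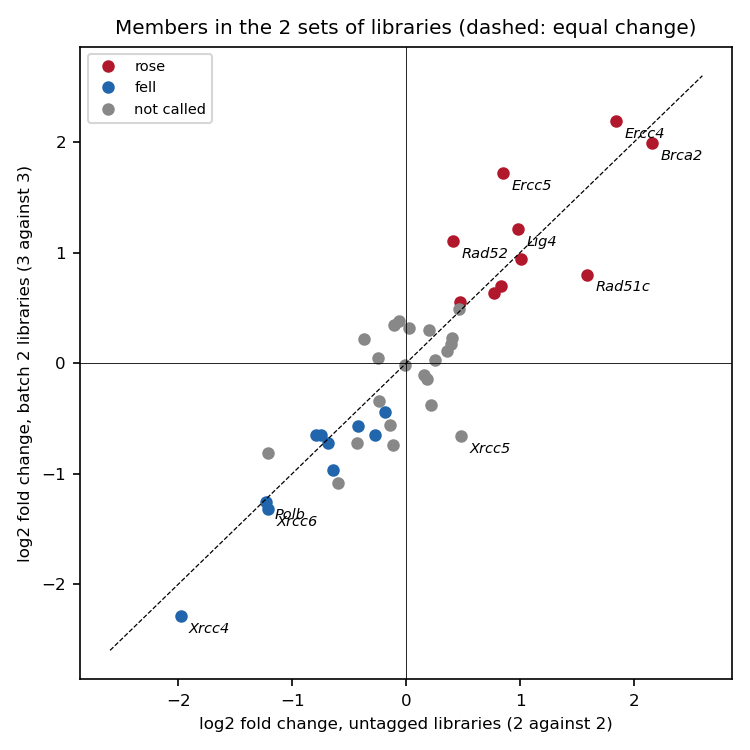
Log2 fold change of each tested member in the untagged libraries (horizontal axis) and in batch 2 (vertical axis), with a dashed line of equal change. Called members lie at the lower left and upper right, and Xrcc5 lies at 0.48 and −0.66.

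The members that rose tended to have longer transcripts than those that fell. The estimated transcript length in the deposited tables had a median of 4172 bases in the 10 that rose (1692 to 10964) and 2694 bases in the 10 that fell (1227 to 5968). Among all tested genes the medians were 2401 bases for those that rose and 2160 for those that fell. Across the 42 members length and log2 fold change had a Spearman correlation of 0.41, and across all 9522 tested genes one of 0.01. The longest exon of the longest coding transcript (GENCODE M21) had a median of 2200 bases in members that rose and 650 in those that fell, beside 1479 and 1125 among all genes. The correlation with fold change was 0.36 in the members and 0.10 in 8831 genes with an annotated transcript. The longest coding transcript and the estimated length differ for some members, as for Ercc4 (3480 and 6703 bases) and Pms2 (5482 and 3233 bases). These are descriptions across genes measured in the same libraries, where longer transcripts also collect more reads at a given level.

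GGACT, a common form of the sequence in which the Mettl3 complex methylates adenosine, was counted on the sense strand of the same transcripts. It had a median of 0.90 per kilobase in members that rose, 1.18 in those that fell and 0.93 in those not called. Among all genes the values were 1.06, 0.98 and 1.02. The Spearman correlation of GGACT per kilobase with log2 fold change was −0.34 across the 42 members and 0.03 across 8831 genes. Brca2 held 5 in 10724 bases and Xrcc4 held 2 in 1540 bases. No methylation was measured here, and the count says nothing of which sites carry the mark.

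**Figure D5:**
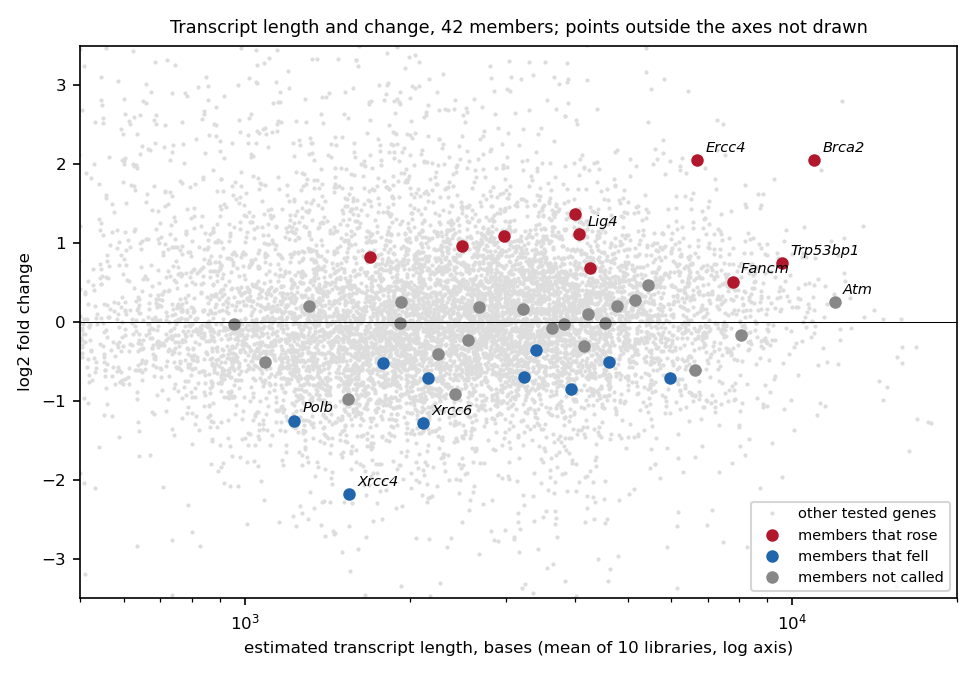
Estimated transcript length in bases (horizontal log axis) against log2 fold change (vertical axis) for the 42 tested members, with other tested genes in light grey and points outside the axes not drawn. Ercc4 at 6703 bases and Brca2 at 10964 bases lie at the upper right and Polb at 1227 and Xrcc4 at 1547 bases at the lower left.

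The estimated transcript length was a single value in all libraries for 39 of the 46 members, so that their ranges could not lie apart. No tested member had ranges that did not overlap, beside 2.61% of all tested genes. A separation could have been seen only in members whose length varied. 

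Other genes of these pathways were taken from 9 lists of 127 measured genes, of which 114 were tested. Of these, 15 rose and 29 fell, which is 38.6% beside the 49.4% of all tested genes. Homologous recombination had 4 of 23 higher and 5 lower. Fignl1, a gene of this pathway, went from 34.9 ± 4.51 FPKM (SD, n = 5) to 19.9 ± 0.956 and fell by 0.86 ± 0.13 (adjusted p = 0.000169), and Sfr1 fell by 0.55 ± 0.09.

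In end joining 2 of 11 rose and 4 fell. Tdp1, which clears trapped topoisomerase from DNA ends, fell by 2.01 ± 0.26 from 6.37 ± 0.885 to 1.70 ± 0.703 FPKM (SD, n = 5). The polymerase gene Poll rose by 1.06 ± 0.25 and Mad2l2 of the shieldin complex by 0.54 ± 0.13. In checkpoint signalling 5 of 26 rose and 6 fell, with Timeless of the fork protection complex falling by 1.44 ± 0.17, Babam1 by 0.98 ± 0.16 and the ubiquitin ligase gene Rnf8 rising by 0.88 ± 0.14.

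In base excision and strand break repair 2 of 12 rose and 3 fell. Lig1, the replicative ligase that also seals long excision patches, fell by 2.72 ± 0.31 from 13.89 to 21.95 FPKM in the controls to 1.21 to 5.88 in Mettl3-ASO (adjusted p = 2.2e-05). Parg, which removes the polymer made by Parp1, rose by 0.97 ± 0.14, and the flap nuclease gene Fen1 rose by 0.66 ± 0.14. All 3 DNA ligase genes were therefore called, Lig1 and Lig3 lower and Lig4 higher.

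In nucleotide excision 2 of 16 rose and 4 fell. The TFIIH genes Gtf2h2 and Gtf2h5 had log2 fold changes of −0.72 ± 0.14 and 0.59 ± 0.13. In the Fanconi pathway 4 of 11 fell, led by Ube2t at −0.44 ± 0.12, Wdr48 at −0.54 ± 0.15 and Fancc at −1.04 ± 0.37. In translesion synthesis 2 of 9 fell, Ube2a by 0.37 ± 0.11 and Rad18 by 0.56 ± 0.20, and Shprh had 0.65 ± 0.26 (adjusted p = 0.0515; 0.00865 with the replicate block). Of the 2 direct reversal genes, Alkbh3 fell by 0.53 ± 0.15 and Alkbh2 had 0.21 ± 0.14.

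Of the 4 other mismatch repair genes tested, 0 were called by edgeR at an adjusted p under 0.05, 1 had an unadjusted p under 0.05, DESeq2 called 1 and limma called 0. Pms1 had a log2 difference of −0.51 ± 0.21 (adjusted p = 0.0545; 0.031 with the replicate block).

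The p53 response, which transcribes arrest and death genes after damage, was measured on 22 genes. Of these, 3 rose and 1 fell, 18.2% beside 49.4% of all tested genes, with a median log2 fold change of 0.06. Bax, a mediator of cell death, fell by 0.77 ± 0.12, while Ei24 rose by 1.27 ± 0.24 and the phosphatase gene Ppm1d by 0.75 ± 0.21. Trp53, the gene of p53 itself, had −0.19 ± 0.15 (adjusted p = 0.306). Its inhibitor Mdm2 had 0.34 ± 0.18 (adjusted p = 0.135). The cell cycle inhibitor gene Cdkn1a had 35.16 to 137.76 FPKM in the controls and 30.53 to 89.83 in Mettl3-ASO, with −0.32 ± 0.25 (adjusted p = 0.321; 0.0433 with the replicate block). Trp53, Mdm2 and Cdkn1a were named after their values were seen.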

How the data were processed

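Embryo pools were profiled with the SMART-Seq v4 PLUS Kit on polyadenylated RNA, per the labels' protocols. STAR 2.7.10 and RSEM 1.3.3 are named with build mm10 in the submitters' processing notes, with no role or option. The authors deposited expected counts per gene, TPM and FPKM, with estimated transcript lengths. Strand use and annotation release are not given in the sources used here.

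Expected counts were rounded and tested with edgeR 4.0.16 in R 4.3.3 (TMM scaling, terms for batch and group, genes with mean FPKM of at least 1, Benjamini-Hochberg over 9522 genes), after a test on simulated data. Every adjusted p is from this test unless named otherwise; ± beside a log2 value is its standard error, and 95% intervals use its t quantile. Alternatives were DESeq2 1.42.0, limma 3.58.1 on log2(FPKM + 1), other scalings and filters, and libraries left out. Counting intervals are not given, and no molecular identifiers are mentioned in the labels.

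Replicate numbers come from the titles, and no label says that they pair libraries across groups. Deviations of same-numbered libraries had correlations of 0.105 to 0.273 over 5 pairs, the first pair and the second equal by construction. Differently numbered libraries were not compared, so these values do not show that the libraries were paired. A fit with the replicate number as a block stands beside results it changed. No pair of libraries was a duplicate (chi-square divided by its degrees of freedom was at least 21.2 in 8 same-group, same-batch pairs). All 46 members are named, with the 3 smallest p of each wider list, of which some genes are not reported here. Members, lists, partner pairs and motifs were chosen with earlier results of these data known. Positions and opposite-strand overlaps are from GENCODE M21 (GRCm38).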

Additional observations from a re-analysis of the deposited data

Results flagged for a closer look

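In 5 of 92 groups of 5 libraries (46 members in each treatment), a single library stood apart from the rest by Dixon's ratio; chance alone gives about 1 in 20. Rad50 was at 6.59 FPKM in ASO-Control replicate 5, with 4.65 to 5.03 in the others. Ercc5 was at 1.40 FPKM in ASO-Control replicate 4, with 2.91 to 3.52 in the others. The remaining 3 were all in Mettl3-ASO replicate 1. Ddb1 was at 45.93 FPKM there, with 23.17 to 25.01 in the other Mettl3-ASO libraries, Xpc at 2.6 with 0.89 to 1.3, and Xrcc3 at 2.21 with 0.30 to 0.85.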

How the results depend on the processing

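Of the 20 called members, 13 stayed called under every alternative in which they were tested other than the untagged libraries alone, and all 20 with the replicate block, which added Brca1, Chek2 and Ddb1. The untagged libraries alone gave 3 members called (1 higher, 2 lower), 596 genes called and 1 gene of the wider lists. At a mean FPKM of at least 5, which leaves fewer members and fewer genes to test, 13 members were called, 6 of them higher. No share of all genes called is given for this filter, so whether 13 lies near the background cannot be told. Leaving out 1 library gave 17 to 24 members called (8 to 10 higher, 8 to 14 lower), 4194 to 4800 genes and 38 to 49 genes of the wider lists.

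No called member changed sign under the 21 alternatives. Some uncalled members did, and the cause was not tested. With the untagged libraries alone log2 fold changes were 0.22 (Atr), −0.11 (Xrcc2), 0.48 (Xrcc5), 0.18 (Xpa), 0.16 (Ddb2) and −0.06 (Fancd2), and with batch 2 alone 0.05 (Xpc) and 0.22 (Fanca). At a mean FPKM of at least 5, Parp1 had 0.04 and Xpa 0.03, and Xpa had 0.01 with no batch term. With limma at pseudocounts of 1, 0.1 and 5, Xpa had 0.03, 0.04 and 0.02, Ddb2 0.03, 0.03 and 0.02, and Fanca 0.00, 0.01 and 0.00. With each library left out in turn, the range was −0.28 to 0.03 for Atr, −0.18 to 0.10 for Parp1, −0.13 to 0.16 for Xpa, −0.24 to 0.09 for Xpc, −0.15 to 0.15 for Ddb2, −0.15 to 0.06 for Fanca and −0.05 to 0.35 for Polk.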
